A study of Mus musculus with 12 samples.

Results

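The genes described here were 9 epithelial genes, most of them used to mark Merkel cells, sweat glands or other simple epithelia: the keratins Krt7, Krt8, Krt15, Krt18, Krt19 and Krt20, the water channel Aqp5 and the transcription factors Foxa1 and Atoh1. They were chosen by symbol, and all 9 were among the 22609 symbols listed with a read count in each library. RNA sequencing was done on hind paw tissue and on dorsal root ganglia (DRG), the ganglia that hold the cell bodies of sensory neurons, from male and female C57BL/6J mice aged 8 to 14 weeks. Each of the 4 groups of tissue and sex had 3 libraries, 12 in all, and per the labels every mouse had received 20 µl of saline into the paw. The series text states that both tissues came from 3 males and 3 females, without naming which libraries share an animal. The study's methods differ from the labels in giving a lower upper age and naive mice. According to them the females were in estrus, the paw sample was a punch of epidermis and dermis with part of the fat beneath, and the ganglia were those of lumbar levels L3 to L5.

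Keratins form filaments as pairs of a type I and a type II protein. In simple, that is single-layered, epithelia the usual pair is the type II keratin Krt8 with the type I keratin Krt18, often joined by Krt7 (type II) and Krt19 (type I), while the stratified epidermis uses Krt5 with Krt14 and Krt1 with Krt10. Merkel cells are touch receptor cells of the epidermis that contain Krt8, Krt18 and Krt20 and need the transcription factor Atoh1 to form. Eccrine sweat glands, which in mice are found on the paw pads, have a secretory coil that expresses Krt8, Krt18, Krt19 and Aqp5 and needs Foxa1 to secrete. Krt15 belongs instead to basal cells of stratified epithelium and to the stem cells of the hair follicle bulge, where Krt19 is found as well.

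The reads assigned to genes numbered 6866545 in the shallowest library and 13470783 in the deepest. Male hind paw library 2 stood apart: genes took 13.6% of its listed reads and reads with several alignments made up 55.5%, against 23.8% to 28.1% and 37.3% to 43.2% in the other 11 libraries. The members' differences between the sexes in the hind paw are therefore given with and without it, as are counts of the sweat gland, hair follicle, epidermis and muscle lists, the latter chosen after seeing the data.

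The members spanned a wide range of levels in the hind paw. Levels of different genes were compared per length, as RPKM (reads scaled by exon length in kilobases and by library size), given as mean ± SD over the 6 hind paw libraries. Krt15 was highest at 72.5 ± 22.0 RPKM (SD, n = 6), followed by Aqp5 at 53.7 ± 10.7. These 2 were not separated in every library, Krt15 being above Aqp5 in 5 of 6. Krt18 followed at 12.4 ± 3.83 RPKM, Krt19 at 6.39 ± 2.24 and Krt8 at 2.45 ± 0.514, and each was above the next in 6 of 6 libraries. Krt7 at 0.584 ± 0.141 RPKM and Foxa1 at 0.401 ± 0.182 changed places between libraries, with Krt7 above in 4 of 6, and in 6 of 6 when length was taken from the longest transcript, which put Krt7 at 1.01 RPKM. Krt20 came last among the detected members at 0.0705 ± 0.0559 RPKM. Without male library 2 the mean was 0.0516 RPKM for Krt20 and 10.9 for Krt18, and it moved by a smaller percent for the others.

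The markers most particular to Merkel cells were at or near 0. Atoh1 had 0 reads in all 12 libraries, which for the hind paw allows a share of up to 4.56e-06% of the reads on genes, counting error alone. Krt20 had 8 reads over the 6 hind paw libraries, at most 2 in any of them, and 3 reads over the 6 DRG libraries. Of 11 further Merkel cell genes, Pou4f3, another transcription factor of these cells, had 2 reads in the hind paw and Insm1 had 5. The most abundant per length was the neuropeptide gene Cck at 1.57 RPKM, followed by the vesicular monoamine transporter Slc18a2 at 0.760, the transcription factor Sox2 at 0.376 and the synaptic vesicle protein Syp at 0.336. The list summed to between 7.29 and 10.2 CPM (reads scaled to library size) in the hind paw libraries. In DRG, where neurons use many of the same genes, it summed to between 839 and 1138 CPM. Between the sexes in the hind paw, 0 of the 4 tested genes of the list reached an unadjusted p of 0.05 in edgeR, with a median log2 fold change of -0.14. Of the 10 genes of the list tested between the tissues, Cck (log2 fold change 3.74) and Slc18a2 (1.145) were higher in the hind paw and the other 8 lower. Over all genes, 85.6% differed in either direction at an adjusted p below 0.05 in edgeR, and 42.6% were higher in the hind paw. With Atoh1 at 0 and Krt20 at 8 reads, the members are named below by gene and not by cell type.

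Sweat gland genes were present. Of 14 further genes of this list, 13 passed the count filter in the hind paw (at least 10 reads in at least 3 of 6 libraries) and Cftr, with 1 read, did not. They summed to between 541 and 807 CPM per hind paw library. The most abundant was the Na-K-Cl cotransporter Slc12a2 at 54.4 RPKM, which was higher in DRG at 66.6 RPKM (log2 fold change of hind paw minus DRG -0.28, SE 0.07; adjusted p = 0.00234 in edgeR). Foxi1, a transcription factor of ion-transporting epithelia, had 662 reads in the hind paw and 0 in DRG, and the channel gene Best2, a marker of the secretory coil, had 517 and 6.

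The 6 keratins lie on 2 chromosomes. Coordinates are on mouse build mm9. Krt15 (chr11:99993072-99997263) and Krt19 (chr11:100002124-100009979) are neighbours 4.86 kb apart on the minus strand of the type I cluster, with Krt20 (chr11:99289717-99299464) in the same cluster. Krt8 (chr15:101827142-101834773, minus strand) and Krt18 (chr15:101858647-101862457, plus strand) lie 23.9 kb apart, and Krt7 (chr15:101241474-101260744) and Aqp5 (chr15:99421280-99425260) are on the same chromosome. Foxa1 (chr12:58641618-58647108) and Atoh1 (chr6:64679140-64681227) lie on other chromosomes.

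Of the 9 members, 7 had a promoter in the RefSeq table of build GRCm38.p6, and the 250 bases before the start were searched on both strands for 4 motifs. The forkhead motif TGTTTAC, the kind of sequence that Foxa1 binds, was in 3.17% of 32851 promoters of the same length and in 1 of the 7, that of Foxa1 itself. The E-box CAGGTG was in 17.2% of all promoters and in 4 of the 7 (Krt7, Krt8, Krt18 and Foxa1). The GC box GGGCGG was in 32.7% of all and in 4 of the 7 (Krt7, Aqp5, Foxa1 and Atoh1), and the TATA box TATAAA in 12.4% and in 1, that of Krt20. The matches are a description of letters. The promoters of Krt8 and Krt18 are shown as those of filament partners, and those of Krt7 and Foxa1 because their log2 fold changes between the sexes, neither of which passed the adjusted threshold, had opposite signs. Each is written 5′ to 3′ on the gene's strand, with motif matches on either strand in capitals. They lie at chr15:102004343-102004592 (Krt8, minus strand), chr15:102027966-102028215 (Krt18, plus), chr15:101412153-101412402 (Krt7, plus) and chr12:57546112-57546361 (Foxa1, minus).
Krt8: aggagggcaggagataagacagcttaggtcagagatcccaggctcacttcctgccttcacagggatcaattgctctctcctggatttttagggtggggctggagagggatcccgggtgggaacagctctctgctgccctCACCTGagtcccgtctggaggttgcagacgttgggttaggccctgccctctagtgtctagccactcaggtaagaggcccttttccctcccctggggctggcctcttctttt
Krt18: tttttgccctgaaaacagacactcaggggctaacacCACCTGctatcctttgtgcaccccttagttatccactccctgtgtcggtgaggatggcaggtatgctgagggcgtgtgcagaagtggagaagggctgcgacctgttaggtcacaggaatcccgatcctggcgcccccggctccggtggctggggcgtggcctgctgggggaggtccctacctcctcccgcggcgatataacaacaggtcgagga
Krt7: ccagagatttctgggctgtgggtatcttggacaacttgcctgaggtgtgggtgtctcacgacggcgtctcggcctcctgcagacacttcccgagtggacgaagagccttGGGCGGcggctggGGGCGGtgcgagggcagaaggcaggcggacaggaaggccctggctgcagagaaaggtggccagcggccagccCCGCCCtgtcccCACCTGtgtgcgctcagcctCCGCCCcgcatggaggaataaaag
Foxa1: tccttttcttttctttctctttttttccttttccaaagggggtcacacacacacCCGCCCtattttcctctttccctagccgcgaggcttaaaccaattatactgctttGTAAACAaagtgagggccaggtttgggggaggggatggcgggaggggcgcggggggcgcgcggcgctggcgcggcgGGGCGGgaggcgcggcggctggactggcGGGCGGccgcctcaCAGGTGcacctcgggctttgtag

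The first comparison asked whether the members differed between female and male hind paw. Krt19 and Foxa1 had higher counts in every male than in any female library, and Krt7 had higher counts in every female library. None of the 7 members tested passed an adjusted p of 0.05 in edgeR. Values are normalized counts, that is reads scaled by median-of-ratios factors to a common library size within the tissue, and differences are log2 fold changes of female minus male with their standard error (SE).

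Krt19 stood at 202, 147 and 150 normalized counts in male libraries 1, 2 and 3 and at 123, 80.1 and 83.7 in female libraries 1, 2 and 3. The lowest male library was above the highest female library, female library 1 being the nearest. The log2 fold change was -0.81 (SE 0.21), that is 1.75-fold higher in males, with adjusted p = 0.246 in edgeR. Its unadjusted p was 0.00486. DESeq2 gave an unadjusted p of 0.00085 and an adjusted p of 0.0552. Without male library 2 it was -0.88 (SE 0.23), with adjusted p = 0.399 in edgeR. In bulk tissue, fewer cells of a type and less RNA per cell cannot be told apart.

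Foxa1 stood at 22.7, 21.0 and 13.6 normalized counts in the males and at 7.80, 8.29 and 11.2 in the females. Male library 3 and female library 3 lay closest, and the sexes did not overlap. These values rest on 83 reads over 6 libraries, 28, 12 and 15 in the males and 8, 9 and 11 in the females. The male libraries alone thus met the count filter, which favours genes high in either sex. The log2 fold change was -1.05 (SE 0.34), with adjusted p = 0.360 in edgeR. Its unadjusted p was 0.0147. It was -0.996 (SE 0.38; adjusted p = 0.542 in edgeR) without male library 2. Without male library 1 it was -0.86 and its unadjusted p was 0.0619, and DESeq2 gave 0.0667.

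Krt7 went the other way. It stood at 38.1, 35.1 and 34.4 normalized counts in the males and at 53.6, 51.6 and 60.2 in the females. The male libraries lay within 4 counts of each other and all were below the females. The log2 fold change was 0.61 (SE 0.18), 1.53-fold higher in females, with adjusted p = 0.304 in edgeR. Its unadjusted p was 0.00887. It was 0.60 (SE 0.20; adjusted p = 0.474 in edgeR) without male library 2, and its unadjusted p was 0.0539 in DESeq2.

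**Figure D1:**
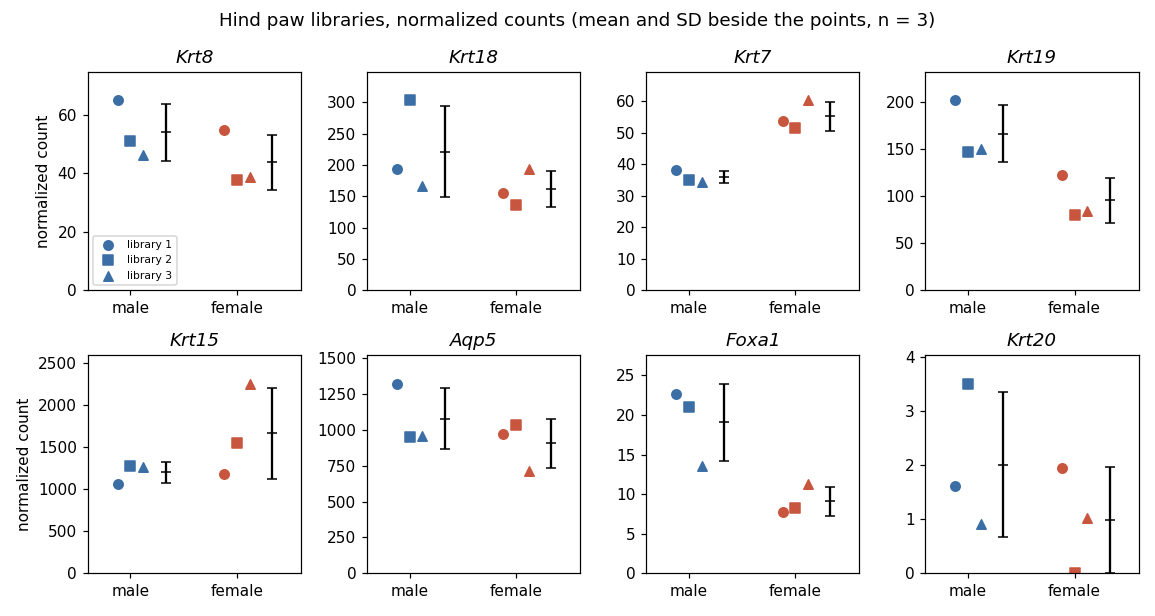
Normalized counts of 8 members in the 6 hind paw libraries, males in blue and females in red, with 1 marker shape per library number and the mean and SD (n = 3) beside the points; Atoh1, at 0 reads, is not drawn. Krt19 and Foxa1 are higher in each male than in each female library and Krt7 lower, while the sexes overlap in the other 5 genes.

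Krt15, the neighbour of Krt19, stood at 1060, 1277 and 1262 normalized counts in the males and at 1185, 1552 and 2256 in the females. Female library 3 was the highest and female library 1 lay among the males, so that the sexes overlapped. The log2 fold change was 0.47 (SE 0.21), opposite in sign to that of Krt19, with adjusted p = 0.532 in edgeR. Its unadjusted p was 0.0567. Without male library 2 it was 0.52 (SE 0.26; adjusted p = 0.649 in edgeR), and DESeq2 gave an unadjusted p of 0.0133. The value rested on female library 3, without which it was 0.19 (unadjusted p of 0.228 in edgeR). Without female library 1 it was 0.67 (unadjusted p of 0.00653) and without male library 1 it was 0.39 (unadjusted p of 0.139).

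The ratio of Krt19 to Krt15, both in RPKM, was 0.184, 0.111 and 0.115 in male libraries 1, 2 and 3 and 0.0999, 0.0498 and 0.0358 in the females. The ratio of Krt19 to Krt7 was 20.1, 16.0 and 16.6 in the males and 8.71, 5.90 and 5.28 in the females. Both ratios were higher in each male library, and both follow from the values above and are no further evidence. With 3 libraries a sex, an exact permutation test of 1 such ratio cannot give a two-sided p below 0.1.

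Krt8 and Krt18, which pair in filaments, did not separate the sexes. Krt18 stood at 194, 303 and 166 normalized counts in the males and at 155, 136 and 194 in the females, male library 2 being the highest. Its log2 fold change was -0.43 (SE 0.24; adjusted p = 0.633 in edgeR) and -0.15 (SE 0.18) without that library. Without male library 3 it was -0.61, with an unadjusted p of 0.0418. Krt8 stood at 64.9, 50.9 and 46.1 normalized counts in the males and at 54.6, 37.8 and 38.8 in the females, with a log2 fold change of -0.31 (SE 0.23; adjusted p = 0.740 in edgeR) and of -0.35 (SE 0.26) without male library 2. It was -0.14 without male library 1 and -0.50 without female library 1. Krt18 exceeded Krt8 in RPKM between 3.66-fold and 7.69-fold in each library. The highest ratio was in male library 2 and the next, 6.45, in female library 3, with medians of 4.65 in both sexes.

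Aqp5 stood at 1321, 947 and 958 normalized counts in the males and at 970, 1031 and 711 in the females. Male library 1 was the highest and female library 3 the lowest, and the other 4 were close together. The log2 fold change was -0.25 (SE 0.17; adjusted p = 0.718 in edgeR) and -0.33 (SE 0.19) without male library 2. It was -0.08 without male library 1 and -0.11 without female library 3.

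Over all 14316 genes tested, 22 (0.154%) passed an adjusted p of 0.05 in this comparison in edgeR and 208 in DESeq2. Of the 7 members, 0 did in either. At an unadjusted p below 0.05, 3 of the 7 members were selected in edgeR (Krt19, Foxa1 and Krt7), against 9.74% of all genes, and 2 in DESeq2 (Krt15 and Krt19), against 7.47% of all genes there. The sexes did not overlap in those 3 members (Krt19, Foxa1 and Krt7), nor in 15.5% of all genes tested. Foxa1 met the count filter by its male libraries alone. By direction, 5 of the 7 were higher in males and 2 in females, and the median log2 fold change was -0.31 over the members and -0.01 over all genes. Krt20 and Atoh1 did not pass the count filter.

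**Figure D2:**
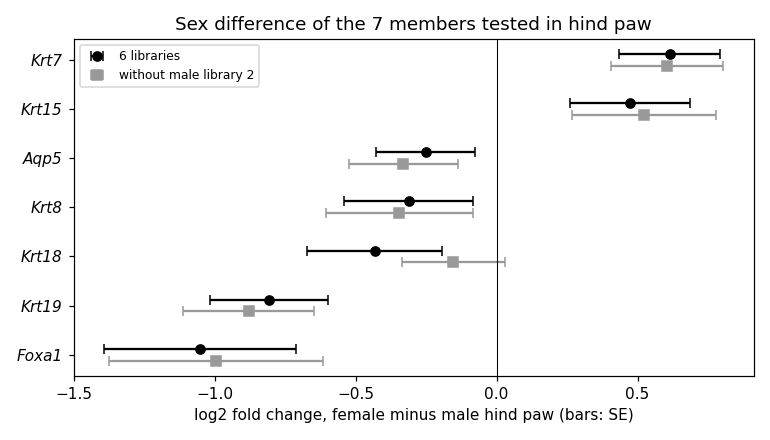
Log2 fold change of the 7 tested members between female and male hind paw, with bars of 1 SE, from all 6 libraries (black circles) and without male library 2 (grey squares). Values below 0 are higher in males; Foxa1 lies at -1.05 and Krt7 at 0.61, and without male library 2 Krt18 moves from -0.43 to -0.15.

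The further sweat gland genes also included more that were higher in males. At an unadjusted p below 0.05 in edgeR, 4 of 13 were higher in males and 1 in females, against 5.49% and 4.25% of all genes, and none passed the adjusted threshold. Without male library 2 it was 5 and 1, against 4.88% and 3.61% of all genes. Without male library 1 it was 4 and 2, against 5.44% and 5.32% of all genes. The counts were also 4 and 2 without female library 3, against 4.03% and 3.31%. The median log2 fold change of the list was -0.15, against -0.01 over all genes. Best2 stood at 156, 96.5 and 86.9 normalized counts in the males and at 71.2, 44.2 and 54.1 in the females, with a log2 fold change of -1.02 (SE 0.27; adjusted p = 0.261 in edgeR). The sexes did not overlap for Best2, male library 1 being the highest as for Aqp5 and Krt19. The others were Slc12a2 (log2 fold change -0.37), the potassium channel Kcnn4 (-0.50) and Scnn1a (-0.40), a subunit of the epithelial sodium channel. Of that channel's other listed subunits, Scnn1b was at -0.60 (unadjusted p of 0.0624 in edgeR) and Scnn1g at 0.54 (unadjusted p of 0.0596 in edgeR). Edaradd, an adaptor of the ectodysplasin receptor that acts in the formation of skin appendages, had a log2 fold change of 0.48 in the other direction.

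The summed level of the 14 sweat gland genes was 807, 695 and 669 CPM in male libraries 1, 2 and 3 and 644, 590 and 541 CPM in the females. Every male library was above every female library, by a small margin between male library 3 and female library 1. Slc12a2 alone supplied 54.0% of the reads of the list, and without it, a choice made after seeing the values, the sums were 376, 292 and 290 CPM in the males and 295, 295 and 255 CPM in the females and the sexes overlapped. The DRG libraries, at 466 to 523 CPM, reached 73.9% of the mean hind paw sum, and 18.2% without Slc12a2. Of the 13 that passed the filter, 11 had a negative log2 fold change, and 9 did without male library 1 or without female library 3.

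Genes of other skin structures also differed between the sexes at an unadjusted p below 0.05, none of them at an adjusted one, and their part in the differences of the members was not tested. Of 15 hair follicle genes, 5 were higher in males at an unadjusted p below 0.05 in edgeR and 0 in females. The shares of all genes were 5.49% and 4.25%, here and for the lists that follow. The median log2 fold change of the hair follicle genes was -0.35. Their count rested on male libraries 2 and 3: without library 2 it was 1 (Lgr5), with a median of -0.40, and without library 3 it was 2. The shares of all genes higher in males were then 4.88% and 4.85%. The list summed to 1016, 1569 and 1290 CPM in the males and to 824, 522 and 693 CPM in the females. The sexes did not overlap in this sum, and female library 2 had 0 reads of Krt27 and of Krt71, keratins of the inner root sheath. The most abundant hair follicle gene per length was Cd34 at 80.2 RPKM, a gene that vessels and connective tissue express too, with a log2 fold change of 0.03. The stem cell receptor Lgr5 had a log2 fold change of -0.58 and Tchh, a protein of the inner root sheath, of -2.29, or -1.87 (unadjusted p of 0.0946) without male library 2.

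Of 8 epidermis genes, 2 were higher in males (Krt1 at -0.91 and Krt10 at -0.37) and 2 in females (Lor at 0.41 and Krt77, a keratin of sweat gland ducts and epidermis, at 1.66), at an unadjusted p below 0.05 in edgeR. Without male library 2 only Krt1 was left, at -0.88. Krt77 was highest in female library 3, without which it was 0.86 (unadjusted p of 0.123 in edgeR). It was 2.25 without male library 1. The median log2 fold change of the list was -0.04. The summed level was 70929, 68543 and 63298 CPM in the males and 54297, 61646 and 47367 CPM in the females, so that this sum, led by Krt10 at 11576 RPKM, did not overlap between the sexes either. Of 7 sebaceous gland genes, Scd3 was higher in males (-1.67) and Mgst1 in females (0.37), with a median of -0.04. Of 8 further simple epithelium genes, the adhesion molecule Epcam was higher in females (0.37) and the transcription factor Ehf in males (-0.49), with a median of 0.07. No gene of the 4 volar epidermis genes, led by Krt9 at 891 RPKM, or of the 7 adipocyte genes reached an unadjusted p of 0.05, and their medians were -0.25 and -0.08. With a library left out some volar genes did: Krt9, higher in females, without male library 2 or female library 3, Krt16, higher in males, without male library 3, and Krt6a and Krt6b, higher in males, without female library 2.

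Skeletal muscle genes varied between libraries within each sex, although per the study's methods the punches did not reach muscle. The 11 genes summed to 4091, 19045 and 14385 CPM in the males and to 9473, 3722 and 13411 CPM in the females, and 0 of 11 reached an unadjusted p of 0.05 in edgeR although all 11 had a negative log2 fold change. Without male library 2 still 0 reached that p and 6 of 11 had a negative value. Without male library 1 it was reached by 3, all higher in males, as by 5.44% of all genes. Male library 1 and female library 2 were low. Male library 1, with little muscle, had the highest Krt19, Krt8, Aqp5, Foxa1 and Best2, whereas female library 2, also with little muscle, had the lowest Krt19, Krt8 and Best2 of the 6 and, after male library 1, the highest Aqp5. The part of muscle content in the members' values was not tested.

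**Figure D3:**
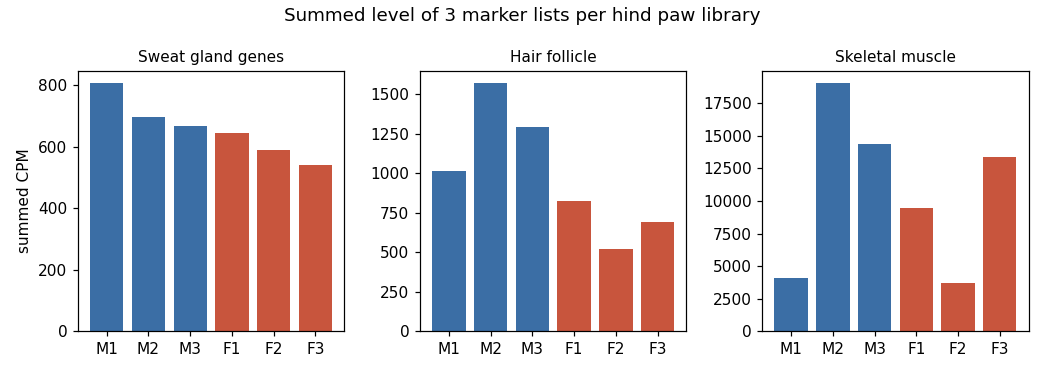
Summed CPM of 14 sweat gland, 15 hair follicle and 11 skeletal muscle genes in the hind paw libraries of males (M1 to M3, blue) and females (F1 to F3, red), each bar 1 library. Sweat gland and hair follicle sums are higher in each male than in each female library, the first only with Slc12a2 included, while muscle sums range from 3722 to 19045 CPM without following sex.

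The genes whose pattern over the 6 hind paw libraries was most like a member were named by Pearson's r of log2 CPM among 11753 genes with a mean of at least 50 normalized counts, for the 4 members with such a mean. These were B3galnt2 (r = 0.986), Wee1 and Scarb2 for Krt15, and 9530091C08Rik (r = 0.997), Ift172 and Rras for Krt18. For Krt19 they were Lamc1 (r = 0.9996), Galntl2 and Gm757, and for Aqp5 they were Alox12b (r = 0.994), Mmrn1 and Tnks1bp1. With 6 libraries and so many genes such values are easily reached: between 98 and 253 genes had an r above 0.9 with each member.

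The second comparison set the hind paw against DRG, with sex as a covariate. All 7 members tested were higher in the hind paw at an adjusted p below 0.05 in edgeR, as were 42.6% of the 15666 genes tested, 85.6% of which differed in either direction. Only Krt19 also passed the count filter within DRG. The other members entered the test through their hind paw reads alone, so their direction was set by the filter. In each of the 7, the lowest hind paw library was above the highest DRG library in CPM, as in 34.8% of all genes tested. For all but Krt19 this separation was largely set by the filter and is no further evidence.

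Krt15 had a log2 fold change of 9.92 (SE 0.33; adjusted p = 1.5e-12 in edgeR) and Aqp5 of 9.23 (SE 0.23; adjusted p = 6.7e-14 in edgeR). Over the 6 DRG libraries Krt15 had 8 reads and Aqp5 had 9, against 8540 and 6039 in the hind paw. Krt18, with 5 reads in DRG and 1093 in the hind paw, had a log2 fold change of 7.61 (SE 0.33). Krt8 had 2 reads in DRG and 295 in the hind paw, a ratio of 146 with a 95% exact counting interval of 40.1 to 1211. Foxa1 had 83 reads in the hind paw and 0 in DRG, at least 27.4-fold higher against a floor of 3 reads over the group. Intervals and floors cover counting error only.

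Krt7 and Krt19 differed least. Krt7 had 14 reads in DRG, a log2 fold change of 4.18 (SE 0.35). Krt19 had 27, 32 and 14 reads in the male DRG libraries and 38, 24 and 21 in the females. It was the only member with at least 10 reads in each DRG library, and its log2 fold change of 2.26 (SE 0.25; adjusted p = 8.7e-07 in edgeR) was the smallest of the 7.

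**Figure D4:**
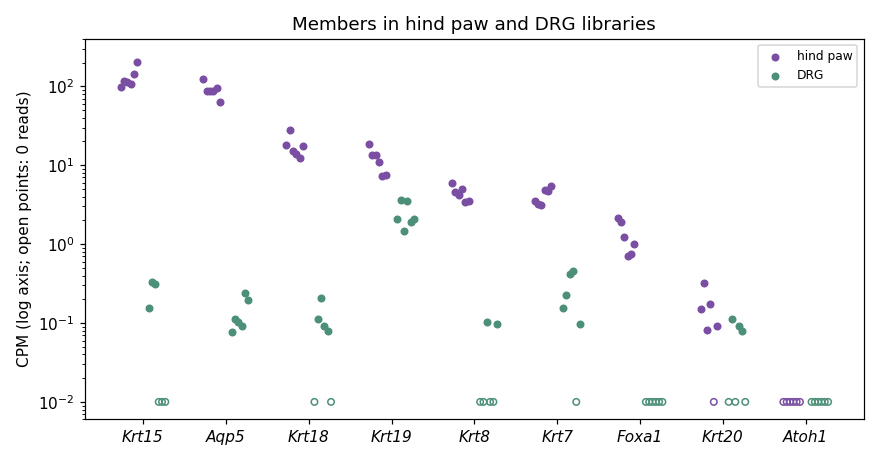
CPM (log axis) of the 9 members in the 6 hind paw (purple) and 6 DRG (green) libraries, with open points at the bottom for libraries with 0 reads. The tissues do not overlap in the 7 members from Krt15 to Foxa1, and Krt19 has the highest DRG level.

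Set as a percent of the mean hind paw CPM, the DRG level was 0.102% for Krt15, 0.151% for Aqp5, 0.470% for Krt18, 0.757% for Krt8, 5.43% for Krt7 and 20.3% for Krt19. The 8 epidermis genes stood at 0.0840% and the 4 volar epidermis genes at 0.107%, near Krt15. The other lists of skin genes stood far higher as sums. Hair follicle stood at 10.6%, simple epithelium at 35.6%, sebaceous gland at 61.5% and sweat gland at 73.9%. Single genes led these sums in DRG, in the same order Cd34 (3952 reads), Cdh1 (17807), Scd1 (84341) and Slc12a2 (27995). Without Slc12a2 the sweat gland list stood at 18.2%. The median log2 fold changes of hind paw minus DRG in edgeR were 5.83, 6.90, 3.84 and 5.64, in the same order. Part of these genes passed the count filter only through the hind paw. Krt15 in DRG came from the 3 male libraries (2, 3 and 3 reads) and from none of the females. The epidermis genes summed to 32.9, 56.3 and 99.2 CPM in the male DRG libraries and to 28.9, 56.8 and 33.2 CPM in the females. The part of skin RNA in the DRG counts was not tested.

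The other lists placed the 2 tissues as labelled. All 11 sensory neuron genes and all 6 Schwann and satellite glia genes were lower in the hind paw in edgeR, with median log2 fold changes of -8.71 and -5.13. Of all genes tested, 85.6% differed in either direction and 42.6% were higher in the hind paw. Some of the list genes passed the count filter only through DRG. Between the sexes in the hind paw, 7 of the neuron genes and 5 of the glia genes were tested. In each list 1 was higher in males at an unadjusted p below 0.05 in edgeR, Tubb3 at -0.64 and S100b at -0.69, against 5.49% of all genes. A positive log2 fold change was found in 6 of the 7 and 2 of the 5. Among 7 genes of mesothelium and arachnoid, cell layers that can cover dissected ganglia, 5 were tested between the tissues and all 5 were lower in the hind paw, and 0 of 2 tested reached an unadjusted p of 0.05 between the sexes there. Their median log2 fold change was -5.57, and they summed to between 36.6 and 63.0 CPM in DRG. The most abundant was Cldn11 at 14.5 RPKM, a gene that myelinating cells express too. The mesothelial marker Msln had 264 reads in DRG and Upk3b had 0. Whether Krt19 in DRG came from such cells was not tested.

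The third comparison asked whether the sexes differed in DRG. Krt19, the only member to pass the filter there, had a log2 fold change of 0.11 (SE 0.38; adjusted p = 0.958 in edgeR), and the sexes overlapped. No member was called, by edgeR or by DESeq2, where 0.0484% of 14456 genes were called in edgeR and 15 genes in DESeq2. At an unadjusted p below 0.05 it was 0 members in either, against 6.01% of all genes in edgeR and 3.53% in DESeq2.

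The fourth comparison asked whether the sex difference itself differed between the tissues. None of the 7 members passed an adjusted p of 0.05 for the interaction of sex and tissue, in edgeR or in DESeq2. Of 15666 genes, 0.0128% did in edgeR and 36 genes in DESeq2. For Krt19, with reads in every library of both tissues, the interaction was -0.91 (SE 0.44; adjusted p = 0.656 in edgeR). Krt15 had an unadjusted p of 0.0216 and an adjusted p of 0.533 in edgeR, which rests on 8 DRG reads, all of them in males. Thus 1 member was selected at an unadjusted p below 0.05 in edgeR and 2 in DESeq2, where 7.76% and 6.84% of all genes were. Over the alternatives run, the interaction of Krt19 lay between -1.29 and -0.60, with adjusted p between 0.480 and 0.922. Krt7 had 5 of its 14 DRG reads in female library 1. Its interaction was 1.08 (SE 0.86; adjusted p = 0.809 in edgeR), and 2.86 (unadjusted p of 0.0104; adjusted p of 0.630) without that library. It was 0.45 (unadjusted p of 0.591 in edgeR) without female DRG library 2 and 0.62 without male DRG library 3. The other members had 0 to 9 reads over the DRG libraries, which leaves sex differences there poorly measured.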

How the data were processed

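Read counts per gene symbol were deposited for 12 libraries. Per the labels and the methods, the authors aligned reads with TopHat2 to mouse build mm9 and counted them with HTSeq, without stated versions. The labels name a strand-marking kit with rRNA depletion, the methods an oligo-dT one, and which was used is not settled here. Whether the counting used strand is not given in the sources used here. The 5 rows of reads not assigned to a gene were left out of library sizes; reads without a feature made up 30.9% to 35.6% of those listed. Reads with several alignments were not counted, which lowers counts of genes with near-identical copies.

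Counts were tested with edgeR 4.0.16 (R 4.3.3; quasi-likelihood F-test, two-sided, RLE factors) on genes with at least 10 reads in at least 3 libraries of the comparison, and p-values were adjusted by Benjamini-Hochberg over all genes tested. The SE was derived from the F statistic. RPKM used the union of exons (GENCODE M1, the mm9 build). CPM used factors over all 12 libraries, and log2 CPM for likeness used a prior count of 2. Tests were checked on simulated data, where genes made without a change took more of the calls between the sexes than the nominal share, in the hind paw above all. Alternatives were DESeq2 1.42.0, TMM factors, no filter, all 12 libraries in 1 fit, the replicate number as a block and each library left out. No libraries of a group were duplicates by a chi-square comparison of counts. Named genes were the 9 members, list genes with an unadjusted p below 0.05 between the sexes in the hind paw or up to 4 of the highest RPKM, and the 3 genes most like each member. Pou4f3, Insm1, Cftr, Foxi1, Scnn1b, Scnn1g and Upk3b fall outside this rule and were named after their values were seen. The members and the 12 lists were chosen with earlier results of these data known. Depth per library ranged from 6866545 to 13470783 reads on genes. Plots were drawn with matplotlib.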

Additional observations from a re-analysis of the deposited data

How the results depend on the processing

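The counts of members called were the same under each alternative run: 0 between the sexes in the hind paw, 0 in DRG, 7 between the tissues and 0 for the interaction. At an unadjusted p below 0.05 in the hind paw, 3 members were selected, 2 with DESeq2, 3 with all 12 libraries in 1 fit, 4 without a filter and from 2 to 4 on leaving out single libraries. The shares of all genes were 9.74%, 7.47%, 12.4%, 8.58% and from 6.51% to 10.8%. The members selected changed: Krt18 was selected without male library 3, in the fit of all 12 libraries Krt7 was not selected (p of 0.0823 in edgeR) and Krt15 was, and DESeq2 selected neither Krt7 nor Foxa1. Krt19 was selected in each of the 11 alternatives, with a log2 fold change between -1.03 and -0.64. No member changed direction between the sexes in the hind paw. Over all genes, 22 were called there in edgeR, 208 with DESeq2, 92 with all 12 libraries in 1 fit, 40 without a filter, 8 with the replicate block and from 1 to 8 on leaving out single libraries; without male library 2 it was 1. In DRG 7 genes were called, 15 with DESeq2 and between 1 and 6 with a library left out, and for the interaction 2, 36 with DESeq2, 4 without a filter, 1 with the block and between 0 and 4 with a library left out. The cause of these differences was not tested.

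Same-numbered libraries did not deviate together. Correlations of their deviations from the group means were between -0.28 and 0.001 for hind paw with DRG in males, between -0.05 and 0.13 in females, and between -0.35 and 0.25 for male with female hind paw. The sources do not say whether a number marks an animal, and these values do not settle it. With the replicate number as a block, 4 members had an unadjusted p below 0.05 in the hind paw (Krt15 was added), against 9.21% of all genes, 0 were called there, 0 in DRG, 7 between the tissues and 0 for the interaction.

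Without a filter, 7 members were tested in DRG and Krt15 had an unadjusted p below 0.05 there, as had 5.90% of 18479 genes. This value of Krt15 rests on 8 reads, all in males, and its adjusted p was 0.809 in edgeR. Leaving out a library turned the sign of values that had not passed a test. The log2 fold change of Krt19 between the sexes in DRG lay between -0.23 and 0.50, the interaction of Krt8 between -2.19 and 1.59 and that of Krt18 between -0.76 and 0.84, the last 2 genes having 2 and 5 reads in DRG. TMM moved the median of all genes by less than 0.1 (log2) in each comparison. Foxa1 and Krt20 rest on 83 and 8 hind paw reads and Atoh1 on 0, so that depth limits what can be said of each.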
